A study of Drosophila melanogaster with 8 samples.

Results

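The genes described here are 10 core genes of autophagy in Drosophila: Atg1, Atg5, Atg6, Atg8a, Atg8b, Atg9, Atg12, Atg13, Atg101 and ref(2)P. They were matched by gene symbol and are 10 of the 17558 genes in the deposited table. RNA was sequenced from ring glands of wild-type (w[1118]) larvae and of larvae carrying the kdm5[140] null allele of Kdm5, which encodes a histone demethylase. Every library pooled 80 ring glands from untreated animals of both sexes in equal numbers, reared on standard food, and there were 4 libraries per genotype. Both genotypes were taken as wandering larvae of the last instar, which was about 5 days after egg laying for wild type and about 7 days for kdm5[140], so that age and genotype cannot be told apart. A ring gland holds the prothoracic gland, the corpus allatum and the corpus cardiacum, and in such a bulk sample fewer cells of a type and less RNA per cell cannot be told apart.

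Autophagy delivers portions of cytoplasm to the lysosome inside a double-membraned vesicle, the autophagosome. The Atg1 kinase complex starts the process under the control of TOR, a lipid kinase complex that contains Atg6 marks the forming membrane, and a pair of ubiquitin-like conjugation reactions attaches Atg8a to that membrane. The cargo receptor ref(2)P binds ubiquitylated material and Atg8a, and is itself degraded in the lysosome, so that its protein level is often read as a measure of autophagic flux. In the prothoracic gland autophagy is known as a process on which nutrient signaling acts during the production of the steroid hormone ecdysone. The libraries measure transcripts only, and say nothing of flux or of protein.

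Ring gland markers were abundant in every library. Transcripts of phm, an ecdysone biosynthesis enzyme, ran from 11780 to 15420 counts per 1000000 counts (CPM), those of jhamt of the corpus allatum from 424 to 606 CPM, and those of Akh of the corpus cardiacum from 975 to 1563 CPM. The targeted gene, listed as lid (FBgn0031759), had 144 to 172 CPM in wild type and 193 to 200 CPM in the libraries labelled kdm5[140]. Its transcript was thus higher, not lower, and was called so in the comparison described below (log2 fold change 0.35, edgeR FDR = 0.00437). Directions below compare the libraries as labelled. Wild-type replicate 1 lay farthest from the others of its genotype, at a root-mean-square distance of 0.346 on the log2 scale against 0.213 to 0.305 for the other libraries. Results that rest on that library are given with and without it.

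Across all genes, counts were compared between genotypes with the quasi-likelihood test of edgeR, after TMM normalization and a filter on low counts, at a false discovery rate (FDR) under 0.01. The filter left 9317 genes, among them 9 of the 10 members. At that threshold 2 members were higher in kdm5[140], ref(2)P and Atg101, and 0 were lower by edgeR, DESeq2 or limma-voom. At an unadjusted p under 0.05 in edgeR, 4 were higher, with Atg13 and Atg9 added, and 0 were lower, beside 42.5% of all tested genes in either direction and 20.4% higher. At an FDR under 0.05, 3 were higher, with Atg13 added, beside 30.9% in either direction and 14.4% higher. Over all tested genes 17.5% passed the threshold, with 7.91% of tested genes higher and 9.62% lower, so the 2 of 9 members called are not set apart from the background by their number. The median log2 fold change of the 9 members was 0.24, beside 0.02 for all tested genes, and 7 of the 9 values were positive. The groups of libraries did not overlap, with kdm5[140] higher, for 4 of the 9 (ref(2)P, Atg101, Atg13 and Atg12), and this was the case for 15.6% of tested genes, with 17.6% lower without overlap and 33.2% in either direction. In the plot of each gene by library the digits of the genotypes lie apart for ref(2)P and Atg101. For Atg13 and Atg12 the nearest digits are close, at 42.8 against 43.5 CPM and 6.998 against 7.008 CPM.

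**Figure D1:**
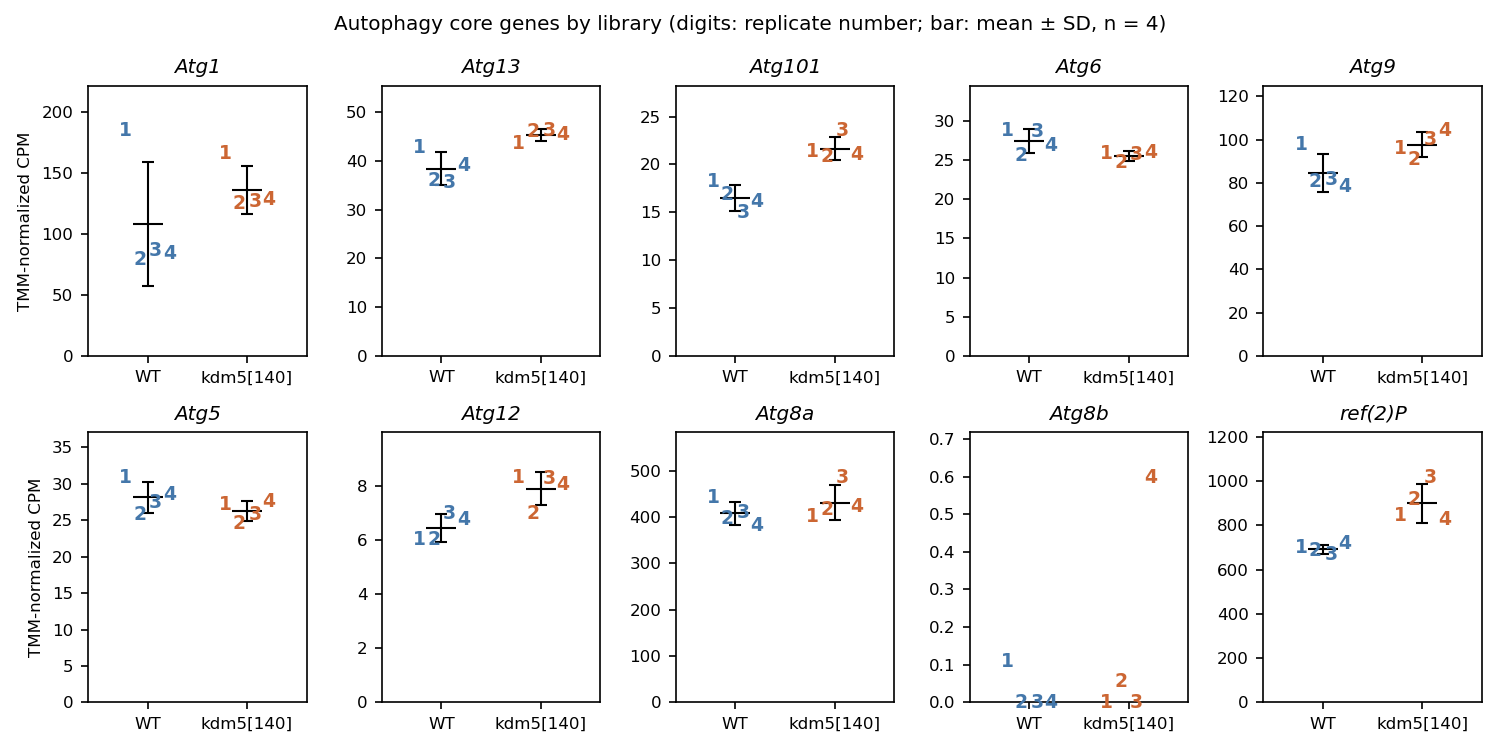
Normalized level of each of the 10 core genes (CPM, vertical axis from 0) in wild-type (blue) and kdm5[140] (orange) libraries. Digits are replicate numbers, and bars give the mean ± SD of 4 libraries for the 9 tested genes (Atg8b has none). For ref(2)P all kdm5[140] libraries lie above all wild-type libraries, while for Atg1 wild-type replicate 1 lies above every other library.

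Before the genotypes are compared, the members can be ordered by their level per kilobase (RPKM, from the same CPM and the gene length listed in the table), since only such values can be compared between genes. In wild type ref(2)P was the highest at 289 ± 8.37 RPKM (SD, n = 4), followed by Atg8a at 241 ± 14.7 RPKM, and the ranges of the 4 libraries did not overlap. These 2 genes, the cargo receptor and the protein it docks to, held 80.3% of the summed RPKM of the 10 members and lay above 97.3% and 96.7% of the tested genes. Atg9 and Atg1 followed at 29.9 ± 3.14 and 26.2 ± 12.2 RPKM (SD, n = 4 each), 8.05-fold below Atg8a for Atg9. Atg5 and Atg6 had 19.9 ± 1.51 and 18.4 ± 1.0 RPKM, Atg12 and Atg13 had 13.8 ± 1.08 and 12.8 ± 1.12 RPKM, and Atg101 had 8.94 ± 0.740 RPKM. Over all 4 wild-type libraries the ranges of neighbours overlapped from Atg9 to Atg6 and between Atg12 and Atg13. They did not overlap between Atg6 and Atg12, or between Atg13 and Atg101. From ref(2)P to Atg101 the level per kilobase fell 32.3-fold, and the order of the mean levels was the same in kdm5[140].

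The cargo receptor ref(2)P (FBgn0003231) is a gene with 3 exons on 2L in dm6 (plus strand, 19542468 to 19545548). Wild-type replicates 1 to 4 had 698, 686, 668 and 716 CPM of ref(2)P, and kdm5[140] replicates 1 to 4 had 843, 915, 1016 and 825 CPM. The lowest kdm5[140] library was above the highest wild-type library. The means of ref(2)P were 692 ± 20.1 and 899 ± 86.7 CPM (SD, n = 4 each). The difference was 0.38 on the log2 scale with a standard error of 0.08 (edgeR FDR = 0.00534), or 1.3-fold. The spread was uneven, with a coefficient of variation of 2.90% in wild type and 9.64% in kdm5[140], against medians of 11.5% and 10.3% over all tested genes.

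Fits of ref(2)P with 1 library left out gave log2 fold changes between 0.31 and 0.42, and 5 of the 8 passed the threshold. The call of ref(2)P was lost without wild-type replicate 2, wild-type replicate 3 or kdm5[140] replicate 2, with an edgeR FDR of at most 0.0213, and with an offset for gene length (log2 fold change 0.31, FDR = 0.0179). The highest library, kdm5[140] replicate 3, was also the highest of all 8 in the summed level of 5 salivary gland glue genes (2590 CPM, against 233 to 1250 CPM in the others). Without that library the ref(2)P difference was 0.31 on the log2 scale (edgeR FDR = 0.00564). The part of salivary gland tissue in it was not tested.

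ref(2)P shares 173 of its 2395 exonic bases with CG10337, a gene on the opposite strand. Whether the counting used strand is not given in the sources used here, which leaves the values of ref(2)P and CG10337 uncertain. CG10337 went the other way, with 372.5 to 413 CPM in wild type and 111 to 163 CPM in kdm5[140], a difference of -1.53 on the log2 scale (edgeR FDR = 1.4e-05).

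Atg8a (FBgn0052672; X, minus strand, from 10764878 to 10768338) encodes the ubiquitin-like protein that is joined to lipid on the autophagosome membrane. Its levels were 442, 398, 409 and 383 CPM in wild-type replicates 1 to 4 and 400, 416, 485 and 423 CPM in kdm5[140] replicates 1 to 4. The groups overlapped. The means of Atg8a were 408 ± 25.0 and 431 ± 37.3 CPM (SD, n = 4 each). Their difference was 0.08 on the log2 scale, with a 95% interval from -0.09 to 0.26 (edgeR FDR = 0.464). Changes of Atg8a as large as the estimate for ref(2)P lie outside that interval.

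Within a library the ratio of ref(2)P to Atg8a does not depend on how libraries are scaled to each other. Per kilobase it was 1.12, 1.22, 1.15 and 1.32 in wild-type replicates 1 to 4, and 1.49, 1.56, 1.48 and 1.38 in kdm5[140] replicates 1 to 4. Every kdm5[140] library thus had more ref(2)P per Atg8a than every wild-type library. The ratio was chosen after the values were seen and is given without a test.

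Atg8b (FBgn0038539; 3R, minus strand, from 17724410 to 17725063) is a single-exon paralogue of Atg8a known for its expression in the male germ line. It was nearly undetected, with 2, 0, 0 and 0 counts in wild-type replicates 1 to 4 and 0, 1, 0 and 12 counts in kdm5[140] replicates 1 to 4. A count of 0 allows up to 3 counts (1-sided 95% limit), or 0.156 to 0.175 per 1000000 counts of these libraries, here without TMM normalization. Only kdm5[140] replicate 4 exceeded that floor, and the exact 2-sided 95% Poisson interval of its 12 counts runs from 6.20 to 21 counts, for counting error only. Atg8b did not pass the filter on low counts and was not compared. In the same library the summed level of 6 markers of the testis germ line (aly, can, sa, bam, Mst87F and dj) was 3.53 CPM, against 0.665 to 1.88 CPM in the other 7. Most of that sum came from Mst87F, with 37 counts against at most 21, and dj, with 22 counts against at most 6. The list was not uniform, since can was also highest there, at 7 counts, but bam was lowest, at 1 count. There sa had 2 counts against 4 in kdm5[140] replicate 3, and aly had 2 counts as in kdm5[140] replicate 2. Of the 6, only Mst87F passed the filter on low counts. The part of such transcripts in the Atg8b counts was not tested.

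The initiation complex joins the kinase Atg1 to its partners Atg13, Atg101 and Atg17. Atg101 (FBgn0030960; X, plus strand, from 18791668 to 18793517), a small subunit that binds Atg13, had 18.2, 16.9, 14.9 and 16.1 CPM in wild-type replicates 1 to 4 and 21.4, 20.8, 23.5 and 21.01 CPM in kdm5[140] replicates 1 to 4. All kdm5[140] libraries were higher. The means of Atg101 were 16.5 ± 1.37 and 21.7 ± 1.25 CPM (SD, n = 4 each). The difference was 0.39 on the log2 scale with a standard error of 0.09 (edgeR FDR = 0.00835), or 1.31-fold. The call of Atg101 lay close to the threshold: 1 of the 8 fits with a library left out passed it, and the edgeR FDR reached 0.0266, while the log2 fold change stayed between 0.34 and 0.44. The same call was lost without a filter on low counts (FDR = 0.017), with an offset for gene length (log2 fold change 0.34, FDR = 0.0224) and without both libraries numbered 1 (FDR = 0.0135). Atg101 lies within the span of another gene on the same strand, with which it shares no exonic base.

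Atg13 (FBgn0261108; 3R, plus strand, from 8349815 to 8352817), the regulatory subunit through which TOR acts on Atg1, had 42.8, 36.0, 35.5 and 39.1 CPM in wild-type replicates 1 to 4 and 43.5, 46.0, 46.1 and 45.4 CPM in kdm5[140] replicates 1 to 4. The groups did not overlap, although wild-type replicate 1 came within 1 CPM of the lowest kdm5[140] library. The log2 fold change of Atg13 was 0.24 (SE 0.07, 95% interval 0.08 to 0.40, edgeR FDR = 0.0316) and did not pass. Without wild-type replicate 1 it was 0.29 (edgeR FDR = 0.00774).

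Atg1 (FBgn0260945; 3L, minus strand, from 12784429 to 12805116), the kinase that starts autophagosome formation, gave the least settled value. It had 184 CPM in wild-type replicate 1 and 78.7, 86.9 and 83.9 CPM in wild-type replicates 2 to 4, while kdm5[140] replicates 1 to 4 had 166, 125, 127 and 128 CPM. Wild-type replicate 1 was above all kdm5[140] libraries and the other wild-type libraries were below all of them. The coefficient of variation of Atg1 in wild type was therefore 46.8%. Over all 8 libraries the log2 fold change of Atg1 was 0.33 (SE 0.29, 95% interval -0.34 to 1.0, edgeR FDR = 0.42).

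Without wild-type replicate 1, in which Atg1 was 2.22-fold the mean of replicates 2 to 4 (83.2 ± 4.13 CPM, SD, n = 3), Atg1 differed by 0.71 on the log2 scale, with a standard error of 0.10 (edgeR FDR = 0.000981). That value and the one over all libraries differ by more than 1.5 times, and the call turns on this library. With replicate 1 of both genotypes left out, an alternative added after the data were seen, Atg1 differed by 0.60 on the log2 scale (edgeR FDR = 0.00035). Leaving out any other single library gave values between 0.20 and 0.37, none past the threshold. In all, 5 of the 9 tested members were called without wild-type replicate 1 (ref(2)P, Atg101, Atg13, Atg9 and Atg1, all higher), beside 19.2% of all tested genes in either direction and 9.13% higher. The plot of fits with 1 library left out shows how far Atg1 stands from the other members in this respect.

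The share of all tested genes past the threshold moved with these choices too. It was 10.5%, 10.1% and 12.7% without wild-type replicates 2, 3 and 4, and 11.0%, 11.0%, 16.0% and 12.1% without kdm5[140] replicates 1 to 4. Of the 8 fits with 1 library left out, the 3 that called 0 members were also the 3 with the fewest calls among all genes. It was 14.2% without both replicates numbered 1, 17.4% in the fit blocked on replicate number, and 10.5% without a filter. DESeq2 called 21.8% of its genes, and limma-voom 17.3%. The gene length offset called 19.1%, with 6.15% higher and 12.9% lower, a split further toward lower genes than the 7.91% and 9.62% without it. With that offset the median log2 fold change of all tested genes was -0.06 in place of 0.02, and that of the 9 members 0.15 in place of 0.24.

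**Figure D2:**
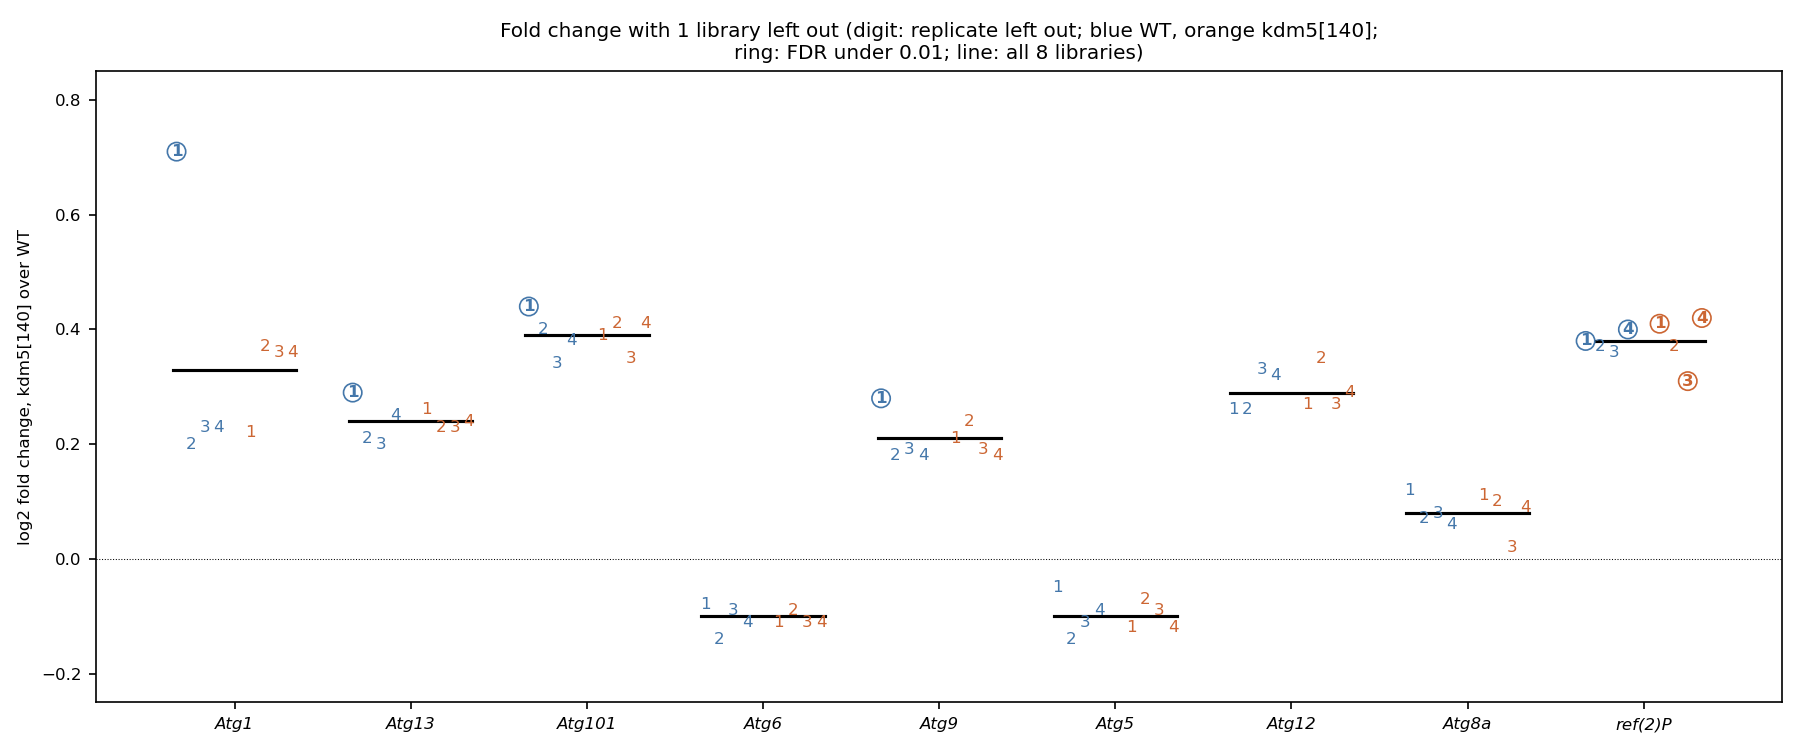
Log2 fold change of kdm5[140] over wild type (vertical axis) for the 9 tested core genes when 1 library is left out. Digits give the replicate left out (blue wild type, orange kdm5[140]), rings mark an edgeR FDR under 0.01, and horizontal lines give the fit to all 8 libraries. For Atg1 the value is 0.71 without wild-type replicate 1 and at most 0.37 otherwise.

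Wild-type replicate 1 was the highest wild-type library for 7 of the 9 tested members and for 15 of 20 other autophagy genes, against 31.4% of all tested genes. Deviations of single libraries from their genotype varied with gene length. In wild-type replicate 1, genes with a listed length up to 1000 bases had a median deviation of -0.12 from the other wild-type libraries on the log2 scale, and the 436 genes over 8000 bases a median of 0.22. Atg1, with a length of 4148 bases, deviated by 1.15, more than 99.2% of 7381 genes whose mean reached 5 CPM, and genes from 4000 to 6000 bases had a median of 0.12. In kdm5[140] replicate 1 the same medians were -0.09 and 0.19, and Atg1 deviated by 0.39. The trend ran the other way in replicate 3 of each genotype, with medians of -0.22 (wild type) and -0.26 (kdm5[140]) for genes over 8000 bases. The same medians were -0.07 and -0.03 in replicate 2, and 0.02 and 0.04 in replicate 4. Each deviation is taken from the other libraries of the genotype, so a trend in 1 library in part fixes opposite ones elsewhere. Wild-type replicate 1 also had the highest summed level of the tracheal genes verm and serp (1630 CPM, against 966 to 1280 CPM in the others). Its Akh level was the lowest of all libraries, at 975 CPM against 1335 to 1563 CPM. The part of the length trends or of tissue composition in the Atg1 values was not tested.

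**Figure D3:**
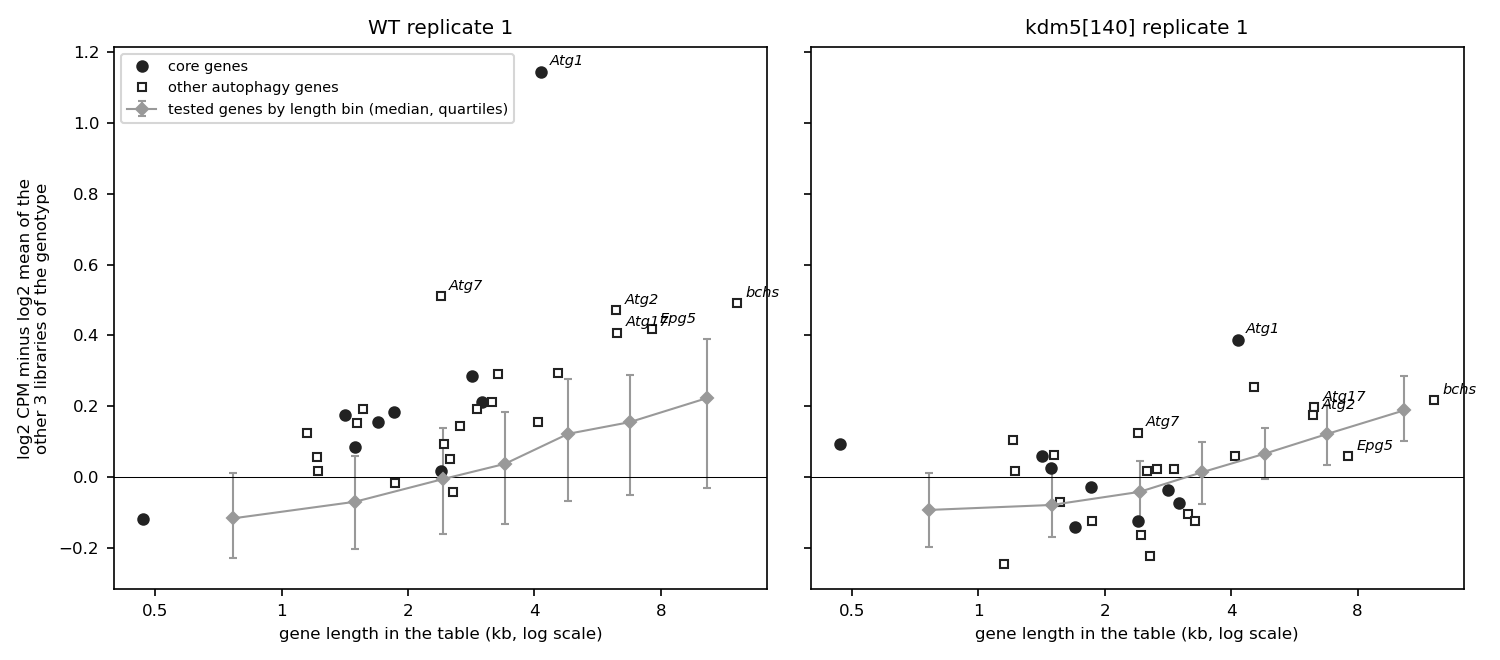
Deviation of replicate 1 of each genotype from the mean of the other 3 libraries (log2 CPM, vertical axis) against gene length (kb, log scale). Filled circles are core genes, open squares other autophagy genes, and grey diamonds with bars the median and quartiles of tested genes whose mean reached 5 CPM, in bins of length. In wild-type replicate 1 Atg1 lies at 1.15, above the upper quartile of genes of its length.

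Over the 8 libraries, the genes whose log2 CPM followed Atg1 most closely were CG9005, ttk, pyd, CG6923 and pcs, with Pearson's r from 0.974 to 0.991. Like Atg1 they were highest in wild-type replicate 1, at 467 CPM for CG9005 against 189 to 197 CPM in the other wild-type libraries and at 1035 CPM against 538 to 576 CPM for pyd, a component of cell junctions. Their edgeR FDR ran from 0.209 to 0.39. The genes nearest to ref(2)P were MED16, His3.3B, EndoGI, Taf12 and MSBP, with r from 0.974 to 0.989, and like ref(2)P they did not overlap between the genotypes, which follows from how they were picked. His3.3B (edgeR FDR = 0.011) and Taf12 (edgeR FDR = 0.0254) did not pass the threshold. MSBP, which encodes a membrane protein that binds steroids, had 1328 to 1406 CPM in wild type and 1751 to 2375 CPM in kdm5[140] (log2 fold change 0.56, edgeR FDR = 0.00174). MED16, a Mediator subunit, had 16.8 to 18.8 and 24.8 to 33.2 CPM (log2 fold change 0.65, edgeR FDR = 0.00137). These correlations describe 8 libraries that share the genotype difference and their depth, and carry no test.

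Atg6 (FBgn0264325; 3R, minus strand, from 24049180 to 24050782), the Beclin homologue in the lipid kinase complex, had 28.7, 25.6, 28.6 and 26.9 CPM in wild-type replicates 1 to 4 and 25.9, 24.6, 25.7 and 25.9 CPM in kdm5[140] replicates 1 to 4. The groups overlapped in a narrow band. The log2 fold change of Atg6 was -0.10 with a 95% interval from -0.26 to 0.05 (edgeR FDR = 0.276). Atg5 (FBgn0029943; X, minus strand, from 7314622 to 7323770) is the protein to which Atg12 is joined. Its levels were 30.9, 25.8, 27.4 and 28.6 CPM in wild-type replicates 1 to 4 and 27.1, 24.6, 25.9 and 27.6 CPM in kdm5[140] replicates 1 to 4, again with overlap. The log2 fold change of Atg5 was -0.10 with a 95% interval from -0.27 to 0.08 (edgeR FDR = 0.366). These 2 genes were the only tested members with negative values, and both intervals exclude a rise of the size estimated for ref(2)P.

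Atg9 (FBgn0034110; 2R, plus strand, from 16294400 to 16297232), the membrane-spanning protein carried on vesicles to the forming autophagosome, had 97.8, 80.4, 81.7 and 78.5 CPM in wild-type replicates 1 to 4 and 95.8, 90.7, 100 and 104 CPM in kdm5[140] replicates 1 to 4. Wild-type replicate 1 alone reached into the range of kdm5[140]. For Atg9 the log2 fold change was 0.21 (SE 0.08, edgeR FDR = 0.0828). Without wild-type replicate 1 it was 0.28 (edgeR FDR = 0.00816), past the threshold.

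Atg12 (FBgn0036255; 3L, plus strand, from 12136967 to 12137559), the ubiquitin-like protein that is joined to Atg5, was the shallowest of the tested members, with 101 to 163 counts per library. It had 6.03, 6.02, 6.998 and 6.78 CPM in wild-type replicates 1 to 4 and 8.33, 7.008, 8.28 and 8.07 CPM in kdm5[140] replicates 1 to 4. The groups did not overlap, but kdm5[140] replicate 2 was barely above wild-type replicate 3, and the Poisson intervals of their 127 and 119 counts (106 to 151 and 98.6 to 142) overlap. The log2 fold change of Atg12 was 0.29 (SE 0.14, 95% interval -0.02 to 0.61, edgeR FDR = 0.146). Both no change and a rise as large as that of ref(2)P lie within that interval. Atg12 shares 64 of its 469 exonic bases with the respiratory complex I gene ND-SGDH (listed as l(3)neo18) on the opposite strand, which fell from 75.6 to 88.6 CPM in wild type to 65.5 to 70.3 CPM in kdm5[140] (log2 fold change -0.29, edgeR FDR = 0.00786), and the value of Atg12 is uncertain for the same reason as that of ref(2)P.

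A further 20 genes of the pathway, listed by function, were all tested. Of these, 4 were higher and 1 lower in kdm5[140] at an edgeR FDR under 0.01, beside 7.91% and 9.62% of all tested genes, and their median log2 fold change was 0.13. The changed genes were not of 1 step. Atg7, the E1-like enzyme that activates both Atg8a and Atg12, had 46.0, 30.7, 34.1 and 31.5 CPM in wild-type replicates 1 to 4 and 61.5, 46.2, 64.2 and 58.7 CPM in kdm5[140] replicates 1 to 4, without overlap (log2 fold change 0.70, SE 0.15, edgeR FDR = 0.00664). Atg4b, one of the proteases that process Atg8 proteins, rose from a range of 19.7 to 23.4 CPM to one of 26.8 to 31.6 CPM (log2 fold change 0.42, edgeR FDR = 0.00451). Atg3, the E2-like enzyme that passes Atg8a on to lipid, fell from 58.2 to 60.9 CPM in wild type to 46.2 to 50.2 CPM in kdm5[140] (log2 fold change -0.28, edgeR FDR = 0.00396). Enzymes of the same conjugation reaction therefore moved in opposite directions.

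Outside conjugation, Atg18a, which binds the lipid made by the Atg6 complex, rose from 100 to 116 CPM in wild type to 123 to 133 CPM in kdm5[140] (log2 fold change 0.30, edgeR FDR = 0.00631). Syx17, the SNARE that drives fusion with the lysosome, had 12.8 to 16.6 CPM in wild type and 20.01 to 22.8 CPM in kdm5[140] (log2 fold change 0.48, edgeR FDR = 0.00695). Exons of Syx17 and Atg4b overlap genes on the opposite strand by 42 and 207 bases, so that both values are uncertain. The calls on this list were fragile: with 1 library left out their number ranged from 0 to 6, and it was 0 in 5 of the 8 fits. The offset for gene length left 1, that of Atg3. Without wild-type replicate 1, Atg17 was the additional call.

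**Figure D4:**
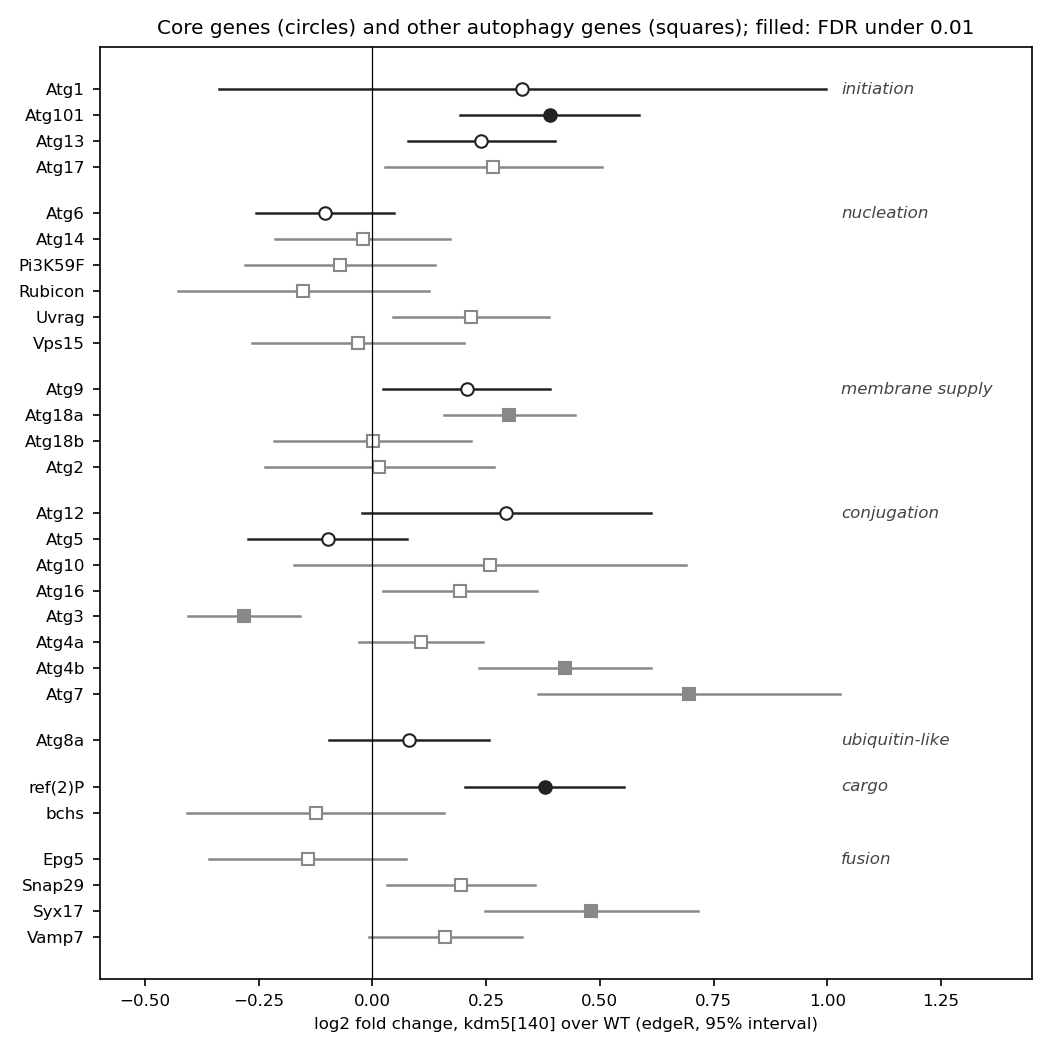
Log2 fold change of kdm5[140] over wild type with 95% intervals (horizontal axis) for the 9 tested core genes (circles) and 20 other autophagy genes (squares), grouped by step of the pathway. Filled symbols mark an edgeR FDR under 0.01. All 4 initiation genes lie above 0, with Atg101 filled, and Atg3 is the only filled symbol below 0.

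Taken by step over members and other genes alike, the 4 genes of initiation (Atg1, Atg13, Atg101 and Atg17) had positive log2 fold changes, from 0.24 to 0.39, and 1 was called, beside 17.5% of all tested genes. The value of Atg1 among them has an interval that includes 0. Of the 6 genes of nucleation (Atg6, Pi3K59F, Vps15, Atg14, Uvrag and Rubicon) 0 were called by edgeR or by DESeq2, 1 value was positive, and the median was -0.05. Uvrag, a subunit that replaces Atg14 in a second form of the complex, was that positive value, at 0.22 (edgeR FDR = 0.0572). The 4 genes of membrane supply were also all positive, at up to 0.30, with 1 called. Of the 8 genes of conjugation 6 were positive and 3 were called. Initiation and nucleation were picked after the values were seen, and the difference between steps was not tested.

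Of 13 listed genes of the lysosome, onto which autophagy converges, 12 were tested, with 1 higher and 2 lower at an edgeR FDR under 0.01, beside 7.91% and 9.62% of all tested genes. Their median log2 fold change was -0.10. CtsB, a cysteine protease, had 321 to 355 CPM in wild type and 435 to 540 CPM in kdm5[140] (log2 fold change 0.52, edgeR FDR = 0.00126). Gba1b, a glucocerebrosidase, had 17.8 to 22.8 and 5.90 to 8.74 CPM (log2 fold change -1.54, edgeR FDR = 5.8e-05), and 560 of its exonic bases overlap a noncoding gene on the opposite strand. spin, a lysosomal transporter needed to renew lysosomes after autophagy, had 239 to 312 CPM in wild type and 177 to 195 CPM in kdm5[140] (log2 fold change -0.59, edgeR FDR = 0.000693). Mitf, the transcription factor that drives lysosomal and autophagy genes in flies, had 60.5 to 64.5 and 57.0 to 62.7 CPM, with a log2 fold change of -0.05 (edgeR FDR = 0.537). With 1 library left out, 3 or 4 lysosomal genes were called in each of the 8 fits.

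Markers of other tissues were present in all libraries, at summed levels that varied widely among libraries of 1 genotype. Fat body genes (Lsp2, Lsp1beta, Fbp1 and Fbp2) summed to 603 to 1800 CPM in wild type and 991 to 3830 CPM in kdm5[140], and 0 of the 4 were called by edgeR. Neuronal genes (elav, nSyb, Syt1, brp and Syn) summed to 130 to 194 and 166 to 241 CPM, with elav called higher. Markers of the prothoracic gland summed to 41200 to 44200 CPM in wild type and 30300 to 39400 CPM in kdm5[140], without overlap. Most of that sum was phm, sad and spok, so it says little of the others. Of the 7 markers 2 were called higher (dib and sro) and 1 lower (spok). No marker of these 3 lists was at 0. The part of tissue composition in the differences of ref(2)P and Atg101 was not tested.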

How the data were processed

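Ring gland poly(A) RNA of 4 WT and 4 kdm5[140] libraries was sequenced as paired reads of 150 bases. Per the methods, the authors aligned reads to dm6 with HISAT2 2.0.5, assembled with StringTie 1.3.3b and counted with featureCounts 1.5.0-p3. The authors deposited whole-number counts per gene without normalization, 17131110 to 19494692 per library. Deposited columns with FPKM values, group means and the authors' own DESeq2 results were not used. Each count column was matched to a library by genotype and replicate number. Separate cultures are not stated, so p-values measure the spread between pools. No libraries of a genotype agreed within sampling noise (chi-square per degree of freedom 11.2 to 62.3).

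Counts were fitted with edgeR 4.0.16 in R 4.3.3 (TMM, filterByExpr, robust quasi-likelihood test, Benjamini-Hochberg adjustment over 9317 genes, FDR under 0.01). Standard errors and 95% intervals were derived from the F statistic and its degrees of freedom. CPM are TMM-normalized, and RPKM divide them by the gene length in the table. DESeq2 1.42.0, limma 3.58.1 (voom), other normalizations, no filter, a gene length offset, a replicate block and each library left out were alternatives. The scripts were tested on simulated counts with known changes. There edgeR recovered 29.2% of genes changed by 0.5 on the log2 scale and 86.4% of those changed by 1.0, with 1 false call. Changes of 0.5 were thus mostly missed in that simulation. It gave all genes the same dispersion and changed 200 of them, while 17.5% of tested genes were called in the data. Its recovery rates are therefore not those of the data. Poisson intervals and floors cover counting error only, while the 95% intervals of log2 fold changes include the spread between libraries.

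The genes named were all members, listed autophagy and lysosomal genes past the threshold, the 5 genes most alike to ref(2)P and to Atg1, and lid. Named besides were listed tissue markers and, chosen after their values were seen, genes sharing exons with members, the genes of initiation and nucleation, and Mitf. Members and lists were chosen with earlier results of these data known. Coordinates of all 10 members were the same in the Ensembl annotation. A planned search of promoters for motifs was not run, because no sequence was used here. Python 3.11.15, pandas 2.3.3, scipy 1.17.1 and matplotlib 3.10.9 did the rest.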

Additional observations from a re-analysis of the deposited data

Results flagged for a closer look

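Single libraries that stood apart from the other 3 of their genotype were looked for in 42 groups of 4 values, those of the tested members, of the listed genes past the threshold and of lid and 3 neighbouring genes. A gap to the nearest library that exceeded Dixon's 95% critical value, as a share of the whole range, marked 6 groups, where chance marks about 1 in 20. Atg1 stood highest in wild-type replicate 1 (gap of 0.923 of the range) and in kdm5[140] replicate 1 (0.922). Wild-type replicate 1 was also the highest for Atg9 (0.835) and Atg18a (0.833). kdm5[140] replicate 2 was the lowest for Atg6 (0.885), at 24.6 CPM against 25.7 to 25.9 CPM, and for Atg18a (0.857), at 123 CPM against 131 to 133 CPM.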

How the results depend on the processing

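Log2 fold changes of the 9 tested members kept their sign in all fits run, with 125 of 144 values on the same side of the threshold. That share is mostly of members that were not called to begin with. The 15 values that lost a call were all of Atg101 or ref(2)P, most of them of Atg101, and 4 values of other members gained one. DESeq2, limma-voom, RLE and upper quartile scaling in edgeR all called the same members, ref(2)P and Atg101. The gene length offset called 0 members (ref(2)P 0.31, Atg101 0.34) and 1 of the other autophagy genes, while the median of all tested genes moved to -0.06 from 0.02. The fit without a filter called 1 member (Atg101 0.38, not called). With the replicate number as a block 1 member was called, with Atg101 at 0.39 and an edgeR FDR of 0.0218, and 5 lysosomal genes. With that block Atg1 was 0.41 (edgeR FDR = 0.0916). Same-numbered libraries deviated together unevenly, with r of 0.265 for replicates 1 and 0.319 for replicates 3. For replicates 2 and 4 it was 0.059 and -0.068. The numbers were therefore not taken to pair the libraries, and whether libraries share a batch by number was not tested. DESeq2 called 5 lysosomal genes, as did edgeR at an FDR under 0.05. Without both libraries numbered 1, Atg1 was 0.60 and past the threshold, Atg101 was 0.44 and not, and 3 other autophagy genes were called. With 1 library left out, the number of members called ranged from 0 to 5, that of other autophagy genes from 0 to 6 and that of lysosomal genes from 3 to 4. Log2 fold changes then ranged from 0.20 to 0.71 for Atg1, 0.34 to 0.44 for Atg101, 0.20 to 0.29 for Atg13, 0.18 to 0.28 for Atg9 and 0.31 to 0.42 for ref(2)P. Fewer libraries are compared in these fits, and otherwise the cause was not tested. Counts were lowest for Atg8b, which was not compared, and for Atg12.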
